A study of Mus musculus with 18 samples.

Results

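The regions described here are 347 autosomal windows of 1 kb that had little DNA methylation in female mouse embryonic fibroblasts (MEF) and more of it in female induced pluripotent stem cells (iPSC). They were chosen from 25766 autosomal windows, called tiles below, that held at least 3 CpGs with 5 or more reads in every sample and fewer than 30 covered CpGs. A tile was kept if its mean level over the 4 female MEF samples was 30% or less, which 10622 tiles met, and if each of the 2 iPSC samples was at least 25 points higher. The level of a tile is the percentage of its reads that were methylated, summed over its CpGs. The 347 tiles are thus 3.27% of the tiles that were low in female MEF, and the other 10275 of those are called the other low tiles. The low level in female MEF and the gain in iPSC are what chose the tiles, so both are described without a test, and so is every difference of iPSC from another group or of male from female MEF. The tests below compare groups that had no part in the choice. The spread of each tile is estimated over all 18 samples, iPSC and female MEF included. The p-values are therefore not fully independent of the choice.

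The assay was reduced representation bisulfite sequencing (RRBS), which cuts DNA with a restriction enzyme, keeps short CpG-rich fragments and reads unmethylated cytosines as converted. The 18 samples formed 7 groups: female iPSC (2 samples), 4 samples of female and 2 of male embryonic stem cells (ESC), female SSEA1+ cells (2), female SSEA1- cells (2), male MEF (2) and female MEF (4). SSEA1 is a surface carbohydrate of mouse pluripotent cells that is used to sort cells on their way from fibroblast to iPSC, and by its title the series is about X chromosome reactivation on the way to pluripotency. The labels give the cell type and the sex, though the titles of the SSEA1+ and SSEA1- samples name no sex. The sources used here do not give strain, genotype, reprogramming factors, day of sorting or clone. They also do not say whether samples of a group came from separate animals or cultures, so a p-value here measures only how these samples vary, and that variation may be technical.

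Methylation of CpGs in mammals is set by the de novo enzymes DNMT3A and DNMT3B with their cofactor DNMT3L, which pluripotent cells express strongly, and is copied at cell division by DNMT1. CpG-dense stretches such as promoter islands usually stay free of it in most cell types, while CpG-poor DNA is usually methylated, and regulatory elements active in a cell type are often locally low. Female mouse ESC, which carry active X chromosomes only, are known for lower methylation across the genome than male ESC. The deposited coordinates are on build mm9, for which no gene annotation was used here, so no tile is assigned to a gene, promoter, exon or intron, and the cell types could not be checked against marker genes.

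Each sample held 11424460 to 62920167 reads over CpGs, and the median number of reads in these tiles was 58 to 346 per sample. The libraries formed 3 technical types by the share of CpGs with reads from both strands, a property that no label records. Type C (7.25 to 7.46%) comprised the iPSC and female MEF 3 and 4, type A (9.03 to 11.7%) all ESC, female MEF 1 and male MEF 2, and type B (15.2 to 16.05%) the SSEA1+ and SSEA1- libraries, female MEF 2 and male MEF 1. Library type therefore cannot be told apart from cell type where iPSC are set beside ESC or SSEA1 cells. At 5489 tiles with 1% or less in every male library, iPSC 1 and 2 had median levels of 3.20% and 3.44%, against at most 0.73% in each other library, and the part of this in the gain was not tested.

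The tiles were intermediate to high in iPSC and male ESC, intermediate in female ESC, and low in SSEA1+ cells, SSEA1- cells and both MEF groups. The mean over the 347 tiles was 57.2% ± 1.81 in iPSC (SD, n = 2), 36.4% ± 0.358 in female ESC (SD, n = 4), and male ESC had 64.2% ± 2.27 (SD, n = 2). It was 21.1% ± 2.54 in SSEA1+ cells, 14.2% ± 0.341 in SSEA1- cells and 21.0% ± 2.80 in male MEF (SD, n = 2 each), against 14.5% ± 2.54 in female MEF (SD, n = 4). From the highest to the lowest the order was male ESC, iPSC, female ESC, SSEA1+ cells, male MEF, female MEF and SSEA1- cells. In it SSEA1+ cells and male MEF, and likewise female MEF and SSEA1- cells, did not differ beyond their spread. The sample medians were 58.3% and 55.6% in iPSC, 34.1%, 35.7%, 35.5% and 35.1% in female ESC, and 68.0% and 72.2% in male ESC. They were 19.3% and 14.7% in SSEA1+ cells, 10.4% and 10% in SSEA1- cells and 15.3% and 19.7% in male MEF, against 11.5%, 10%, 15.8% and 15.8% in female MEF. Every iPSC and ESC sample thus had a median above every SSEA1 and MEF sample. The other low tiles had median levels of 5.06% in iPSC, 1.17% in female ESC, 1.26% in male ESC, 0.568% in SSEA1+ cells, 0.437% in SSEA1- cells, 1.22% in male MEF and 1.45% in female MEF.

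**Figure D1:**
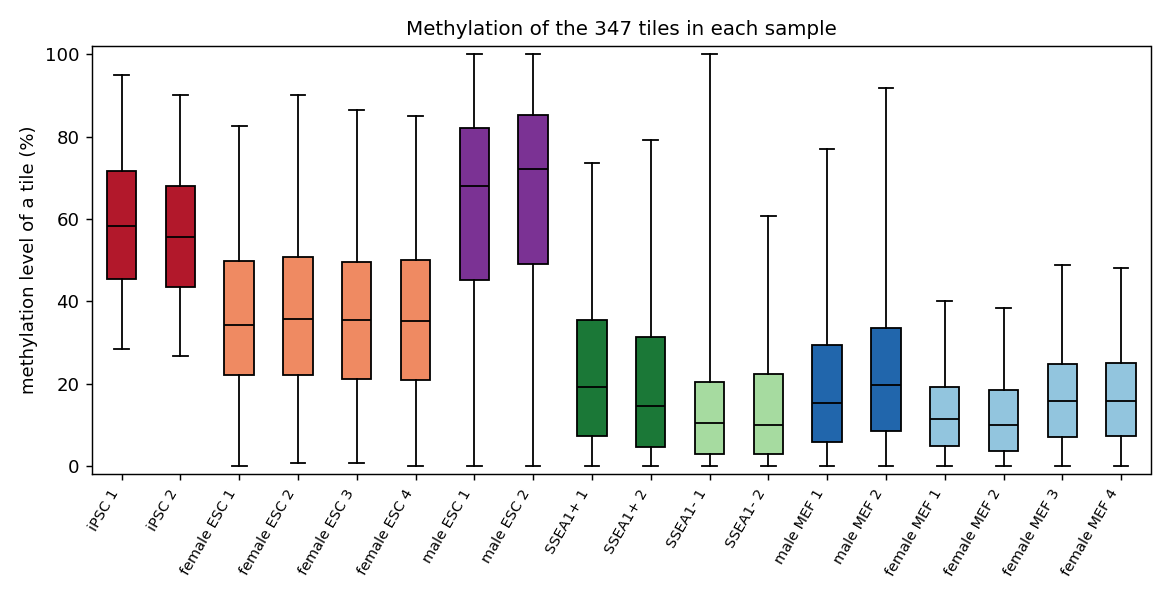
Methylation level (%, vertical axis) of the 347 tiles in each of the 18 samples (horizontal axis); boxes span the quartiles, the line is the median and the whiskers reach the lowest and highest tile. Medians lie between 34.1% and 72.2% in the iPSC and ESC samples and between 10% and 19.7% in the SSEA1 and MEF samples.

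The gain that chose the tiles had a median of 40.7 points in iPSC over female MEF and ran from 25.3 to 77.8 points. It was at least 50 points in 91 tiles and under 30 points in 50 tiles. Levels of 50% or more were reached by 228 tiles in iPSC, 85 in female ESC and 255 in male ESC. Levels of 80% or more were reached by 22 tiles in iPSC, 0 in female ESC and 118 in male ESC. Most tiles thus stayed under 80% in iPSC, as they did in both ESC groups. The replicates were close, with a median absolute difference of 3.87 points between the iPSC samples, and 8 tiles differed by 20 points or more. The tile with the largest gain lies on chromosome 3 (143972001 to 143973000, 5 CpGs), at 92.6% and 85.5% in iPSC against 5.13%, 9.68%, 15% and 15.3% in female MEF. In that tile female ESC had 75%, 66.7%, 76.6% and 57.9%, male ESC 85% and 88.9%, SSEA1+ cells 56.5% and 51.9%, SSEA1- cells 13.8% and 7.19%, and male MEF 5.19% and 21.9%. All SSEA1+ values lay above all SSEA1- and MEF values in that tile. On chromosome 7 (112926001 to 112927000, 7 CpGs) the levels were 72.4% and 84.9% in iPSC, while female ESC had 40.3% to 50.5%, male ESC 82.0% and 71.6%, SSEA1+ cells 5.62% and 21.3%, SSEA1- cells 1.85% and 0%, male MEF 1.19% and 8.28%, and female MEF 0% to 2.95%. On chromosome 13 (98698001 to 98699000, 4 CpGs) they were 80.6% and 77.0% in iPSC, while female ESC had 40% to 61.1%, male ESC 90.0% and 97.8%, SSEA1+ cells 11.6% and 0%, SSEA1- cells 0% and 2.60%, male MEF 0% and 8.45%, and female MEF 0% to 1.59%. In the chromosome 13 tile both SSEA1 groups stayed near the MEF, and in the chromosome 7 tile SSEA1- cells did. In the chromosome 7 tile SSEA1+ 2 stood above every MEF sample, though SSEA1+ cells were not called different from male MEF.

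Male ESC carried methylation at most of these tiles. Against male MEF, 302 of the 347 tiles were higher in male ESC and 0 were lower, where a call needs an adjusted p under 0.05 and a difference of at least 20 points between group means. Over all 33545 tiles tested, 3.8% were called higher and 18.9% lower in male ESC. Among the other low tiles 3.34% were called higher and 2.35% lower. At an unadjusted p under 0.05 in the same quasi-binomial model 323 were higher and 1 lower, and limma called 285 higher and 0 lower. Shares over all tiles are not given for these settings, so such counts only show how the calls vary with the setting. The median difference was 44.7 points over the members, 0 points over the other low tiles and -0.48 points over all tiles. Since the tiles were chosen to be low in female MEF, most had little room for a lower level than in male MEF. Within type A, 2 male ESC libraries against 1 male MEF library, the median difference was 43.3 points and 282 tiles differed by 20 points or more, all upward.

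The differences between male ESC and male MEF named by size were nearly complete switches. On chromosome 12 (113475001 to 113476000, 10 CpGs) male ESC had 100% and 96.1%, against 7.09% and 11.6% in male MEF, a difference of 88.7 points (adjusted p = 1.29e-06). Levels there were 82.7% and 80.9% in iPSC, 45.3% to 75.6% in female ESC, 23.3% and 38.5% in SSEA1+ cells and 5.88% and 2.78% in SSEA1- cells. Its 4 female MEF samples split by library, with 40.7% and 34.7% in type C and 15.6% and 11.6% in the other types, so that over CpGs read in all type C libraries the iPSC gain was 44.1 points. On chromosome 5 (33848001 to 33849000, 9 CpGs) male ESC had 93.3% and 88.5%, against 0.42% and 8.81% in male MEF, a difference of 86.3 points (adjusted p = 2.26e-10). There iPSC had 70.4% and 67.1%, female ESC 33.9% to 42.7%, SSEA1+ cells 37.4% and 33.0%, SSEA1- cells 13.4% and 16.4%, and female MEF 2.53% to 5.79%. In that tile the SSEA1+ samples and the female ESC samples overlap in range. The chromosome 13 tile above differed by 89.7 points (adjusted p = 1.13e-08), and by 55.5 points with library type as a term (adjusted p = 6.41e-07).

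Female ESC were higher than male MEF at fewer of the tiles. Of the 347, 122 were higher in female ESC, where 0.62% of all tiles tested and 0.311% of the other low tiles were. In the other direction the background was 40% of all tiles tested and 4.1% of the other low tiles. A single tile was called lower in female ESC, on chromosome 6 (73171001 to 73172000, 9 CpGs), and is named because it was the only one. Without male MEF 1, 110 tiles were higher and 10 lower, and without male MEF 2, 132 were higher and 3 lower. In the chromosome 6 tile iPSC had 76.2% and 73.5%, female ESC 11.1% to 18.2%, male ESC 50.4% and 35.6%, SSEA1+ cells 36.9% and 34.3%, SSEA1- cells 68.5% and 44.1%, male MEF 42.0% and 55.1%, and female MEF 17.4% to 36.4%. In it only iPSC stood above every other sample. The median difference of female ESC from male MEF was 14.2 points over the members, 0 points over the other low tiles and -11.1 points over all tiles. Sex and cell type differ together in this comparison. Within type A, 4 libraries against 1, the median difference was 13.6 points, with 123 tiles at least 20 points higher and 12 at least 20 points lower.

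Between the ESC groups, the female cells were lower at most of the tiles. Female ESC were lower than male ESC at 234 tiles and higher at 0, where 26.8% of all tiles tested and 3.46% of the other low tiles were lower and 0.0358% of all tiles and 0.0487% of the other low tiles were higher. At an unadjusted p under 0.05 in the same quasi-binomial model 286 tiles were lower and 2 higher, and limma called 210 lower and 0 higher. Shares over all tiles are again not given for these settings. The median difference was -28.6 points over the members and -4.56 points over all tiles, and all 6 ESC libraries were of type A. A lower call needs a level to fall from, which the other low tiles mostly lack in male ESC. The difference is given by male ESC level as a description. That level is itself a term of the difference, so a larger fall at higher levels is in part built in. In the 16 tiles under 20% in male ESC the median difference was 1.32 points, in the 43 tiles at 20 to 40% it was -13.8 points, and in the 75 tiles at 40 to 60% it was -23.8 points. In the 95 tiles at 60 to 80% it was -35.3 points, and in the 118 tiles at 80% or more -33.5 points. Of those last 118 tiles, 98 were called lower in female ESC, and the female ESC median over the 118 was 53.2%. Female ESC thus carried methylation at the tiles most methylated in male ESC, at a reduced level.

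The 3 tiles named by the size of the sex difference had female ESC near the fibroblast level. On chromosome 11 (116925001 to 116926000, 5 CpGs) female ESC had 23.9%, 19.3%, 23.7% and 20.3%, against 89.1% and 84.9% in male ESC, a difference of -65.3 points (adjusted p = 2.49e-06). The iPSC stood at 49.1% and 46.8%, between the ESC groups, and male MEF at 14.3% and 39.2%. On chromosome 4 (151868001 to 151869000, 9 CpGs) female ESC had 26.8%, 20.3%, 13.2% and 24.3%, against 79.3% and 84.0% in male ESC, a difference of -60.5 points (adjusted p = 1.41e-07). The iPSC had 56.8% and 53.3%, and all SSEA1 and MEF samples lay between 16.4% and 44.0%. On chromosome 9 (69517001 to 69518000, 6 CpGs) female ESC had 10%, 23.8%, 8.05% and 16.0%, against 67.6% and 82.4% in male ESC, a difference of -60.5 points (adjusted p = 2.10e-05), with 49.3% and 48.0% in iPSC. In all 3 tiles iPSC lay above every female ESC sample and below both male ESC samples.

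**Figure D2:**
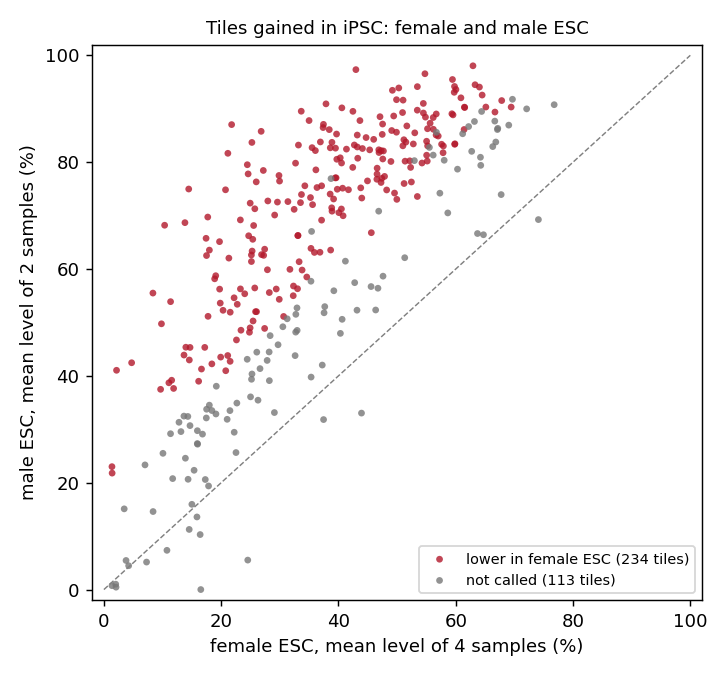
Mean methylation level of each of the 347 tiles in female ESC (horizontal axis, %, 4 samples) and male ESC (vertical axis, %, 2 samples); the dashed line marks equal levels. The 234 tiles called lower in female ESC, in red, lie above the line, and the 113 tiles in grey are not called.

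The iPSC level lay between the means of female and male ESC in 253 tiles (72.9%). It was above the female ESC mean in 340 tiles and below the male ESC mean in 258. As a description, the median difference was 19.7 points from female ESC, with 173 tiles at least 20 points higher and 0 lower. It was -8.59 points from male ESC, with 21 tiles at least 20 points higher and 68 lower. A choice by high values in iPSC tilts these differences and counts upward. Over the other low tiles the median difference was 3.46 points from female ESC and 2.88 points from male ESC. Across the 347 tiles the iPSC level had a Pearson r of 0.780 with female ESC and 0.729 with male ESC. The r was 0.625 with female MEF, 0.607 with SSEA1+ cells, 0.563 with male MEF and 0.502 with SSEA1- cells. Neither SSEA1 group thus exceeded female MEF. The part in these values of CpG number, and of the choice by level in iPSC and female MEF, was not tested. The iPSC share a library type with no ESC or SSEA1 library, and with only some of the female MEF. The 21 tiles where iPSC exceeded male ESC by 20 points or more were CpG-rich, with a median of 17 CpGs against 7 in all members, and had medians of 48.9% in iPSC, 14.4% in female ESC and 14.6% in male ESC. The 68 tiles where iPSC fell short of male ESC by that much had a median of 6.5 CpGs.

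By their calls against male MEF, 120 tiles were higher in both ESC groups, 182 in male ESC only, 2 in female ESC only and 43 in neither. Both calls use the same male MEF samples, so the classes only state on which side of the threshold a tile lies, and the difference between the ESC groups was tested above. The 120 tiles higher in both had medians of 66.6% in iPSC, 49.1% in female ESC, 80.3% in male ESC, 23.0% in SSEA1+ cells, 8.78% in SSEA1- cells, 13.8% in male MEF and 13.1% in female MEF. The 182 tiles higher in male ESC only had medians of 54.3% in iPSC, 28.9% in female ESC, 69.5% in male ESC, 18.0% in SSEA1+ cells, 12.6% in SSEA1- cells, 22.1% in male MEF and 14.7% in female MEF. Male MEF stood above 30% in 20 of the 120 and in 66 of the 182 tiles.

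The pair higher in female ESC only is named because there are 2. The tile on chromosome 1 (140738001 to 140739000, 20 CpGs) had 29.5% and 28.0% in iPSC, 17.7%, 36.2%, 21.9% and 22.2% in female ESC, while male ESC had 7.01% and 4.02%, with at most 4.03% in every SSEA1 and MEF sample. It differed by 22.9 points between female ESC and male MEF (adjusted p = 7.94e-07). The tile on chromosome 4 (46744001 to 46745000, 4 CpGs) had 54.1% and 39.2% in iPSC, 33.3% to 50.9% in female ESC, while male ESC had 37.6% and 28.5% and male MEF 11.8% and 24.2%. There the ESC groups overlapped, and their difference of 10.9 points had an adjusted p of 0.304. In the chromosome 1 tile the ESC groups did not overlap, and their difference of 19.02 points (adjusted p = 0.000521) was under the 20 points of a call, so neither tile was called between the ESC groups.

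**Figure D3:**
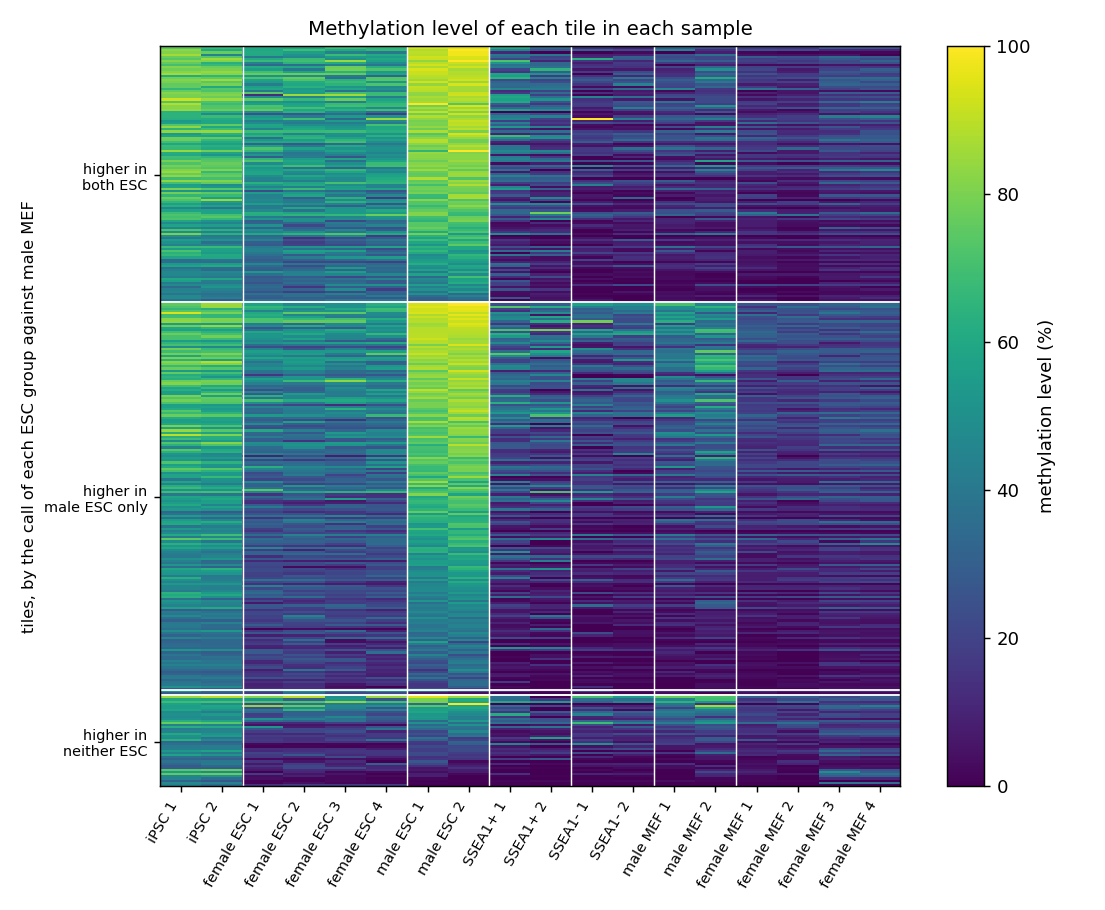
Methylation level (colour, % from 0 to 100) of the 347 tiles (rows) in the 18 samples (columns); rows are split into the 4 classes by the call of each ESC group against male MEF, with the 2 tiles higher in female ESC only as a thin unlabelled band, and white lines separate classes and groups. Male ESC columns are brightest in the upper 302 rows, SSEA1 and MEF columns are dark in most rows, and in some of the lowest rows only the iPSC and female MEF 3 and 4 columns stand out.

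The 43 tiles higher in neither ESC group were of more than 1 kind. In 24 of them male ESC stood at 30% or less. These had a median of 12.5 CpGs and medians of 41.7% in iPSC, 12.8% in female ESC, 14.9% in male ESC, 2.40% in SSEA1+ cells, 4.83% in SSEA1- cells, 6.14% in male MEF and 8.09% in female MEF. In the other 19, male ESC were above 30% with a median of 50.3%, and male MEF were high as well, with a median of 38.5%. These tiles were intermediate in every group but the sorted cells and female MEF, at medians of 22.0% in SSEA1+ cells, 20.8% in SSEA1- cells and 18.8% in female MEF.

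The tiles with the lowest ESC levels had iPSC methylation that the other libraries lacked, in part shared by female MEF 3 and 4. On chromosome 15 (89186001 to 89187000, 23 CpGs) iPSC had 30.8% and 26.8%, and the highest of all other samples was 4.27%. That gain rested on 120 and 71 reads, and over the 3 CpGs read in all type C libraries it was 11.4 points. On chromosome 6 (87995001 to 87996000, 28 CpGs) iPSC had 44.6% and 36.0% and female MEF 3 and 4 had 12.7% and 11.5%, while each other sample was at 3.98% or less. On chromosome 16 (15085001 to 15086000, 24 CpGs) iPSC had 46.5% and 43.8% and female MEF 3 and 4 had 38.5% and 35.1%, while each other sample was at 4.44% or less. The chromosome 6 and 16 tiles therefore set all type C libraries apart from the rest, and the part of library type in that was not tested.

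Members with the most CpGs followed the same pattern. The chromosome 4 tile (129219001 to 129220000, 28 CpGs) had 45.8% and 50.5% in iPSC and 30.2% and 29.7% in female MEF 3 and 4, while every other sample lay at 10.3% or less. The chromosome 15 tile (97078001 to 97079000, 27 CpGs) had 74.0% and 76.5% in iPSC and 27.4% and 25.1% in female MEF 3 and 4, while every other sample lay at 14% or less. In the chromosome 15 tile iPSC still exceeded the MEF of their own library type by 49.0 points over shared CpGs. In the chromosome 4 tile that difference was 18.3 points.

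The iPSC gain was therefore also taken within type C, over the CpGs that all 4 of its libraries read, a step added after the data were seen. Of 346 tiles with such CpGs, 301 (87.0%) kept a gain of at least 25 points in both iPSC samples over the mean of female MEF 3 and 4, and the median gain was 39.1 points. Both iPSC samples and both of these female MEF samples had a part in the choice of the tiles, which favours a kept gain, so the counts are a description and no independent check. The gain was kept in 113 of 119 tiles higher in both ESC groups, in 160 of 182 higher in male ESC only, in 1 of 2 higher in female ESC only and in 27 of 43 higher in neither. It was under 10 points in 4 tiles, all higher in neither ESC group. These were the chromosome 16 tile above at 8.36 points, chromosome 1 (123074001 to 123075000) at 9.78 points, chromosome 5 (144226001 to 144227000) at 3.16 points from 1 CpG, and chromosome 18 (69503001 to 69504000) at 3.13 points. They are named because they are so few. Over CpGs read in all 18 samples and all 4 female MEF, 274 of 325 tiles (84.3%) kept the gain. Female MEF 3 and 4 exceeded female MEF 1 and 2 by 20 points or more in 16 of the 347 tiles and fell below by that much in 0.

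**Figure D4:**
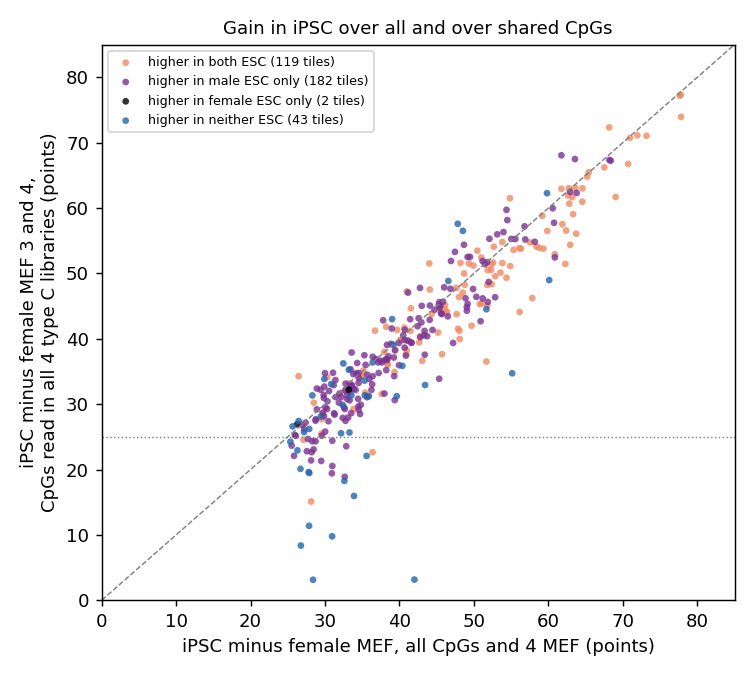
Difference of iPSC from female MEF (points) for each tile, over all CpGs and 4 female MEF on the horizontal axis and over the CpGs read in all 4 type C libraries, against female MEF 3 and 4, on the vertical axis; colours give the 4 classes, the dashed line marks equal values and the dotted line 25 points. Of 346 tiles, most lie along the dashed line, and the 4 under 10 points on the vertical axis are all of the class higher in neither ESC.

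The SSEA1 groups stood near the fibroblasts at most of these tiles, and a minority was higher in SSEA1+ than in SSEA1- cells. Between the sorted groups, both of type B, 37 tiles were higher in SSEA1+ cells and 0 were lower, where 0.516% of all tiles tested were higher and 0.793% lower, while 0.457% of the other low tiles were higher and 0.214% lower. The median difference was 4.54 points over the members, 0 points over the other low tiles and -0.043 points over all tiles. In the 37 tiles the medians were 64.2% in iPSC, 44.1% in female ESC, 82.2% in male ESC, 39.5% in SSEA1+ cells, 8.87% in SSEA1- cells, 21.4% in male MEF and 15% in female MEF. SSEA1+ 1 had the higher of both SSEA1+ levels in 29 of them. At an unadjusted p under 0.05 in the same model 118 tiles were higher and 21 lower. Limma called 23 higher and 0 lower, and with library type as a term 61 were higher and 3 lower. Shares over all tiles are not given for these settings, so the 21 lower tiles cannot be set against a background. Without SSEA1+ 1, 6 tiles were higher and 1 lower, and 5 of the 37 remained, while without SSEA1- 2, 20 were higher and 3 lower. SSEA1+ 2 was the shallower library of its group, with a median of 58 reads in the 347 tiles against 130 in SSEA1+ 1, and the part of depth was not tested.

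Named tiles show the range of levels in the sorted cells. On chromosome 5 (104543001 to 104544000, 4 CpGs) SSEA1+ cells had 58.3% and 61.1%, against 20% and 8.74% in SSEA1- cells, a difference of 45.4 points (adjusted p = 0.00417, and 0.147 without SSEA1+ 1). There iPSC had 73.8% and 69.6%, female ESC 33.3% to 48.6%, male ESC 100% and 94.6%, and male MEF 36.0% and 32.5%. On chromosome 4 (99854001 to 99855000, 3 CpGs) SSEA1+ cells had 53.5% and 43.6%, against 2.22% and 6.25% in SSEA1- cells, a difference of 44.3 points (adjusted p = 0.00417, and 0.140 without SSEA1+ 1). In that tile SSEA1- cells were themselves 29.1 points below male MEF, at 23.7% and 43.0% (adjusted p = 0.0141). SSEA1+ cells were 15.2 points above male MEF, a difference that was not called (adjusted p = 0.139). Female MEF there had 14.3% to 26.7%. Part of the distance between the sorted groups therefore lay below the male MEF level. In the chromosome 3 tile with the largest iPSC gain the difference was 43.7 points (adjusted p = 0.00914, and 0.316 without SSEA1+ 1). Without SSEA1+ 1 or without SSEA1- 2 the difference in these 3 tiles was still between 39.4 and 46.7 points, so the size stayed and the call did not.

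**Figure D5:**
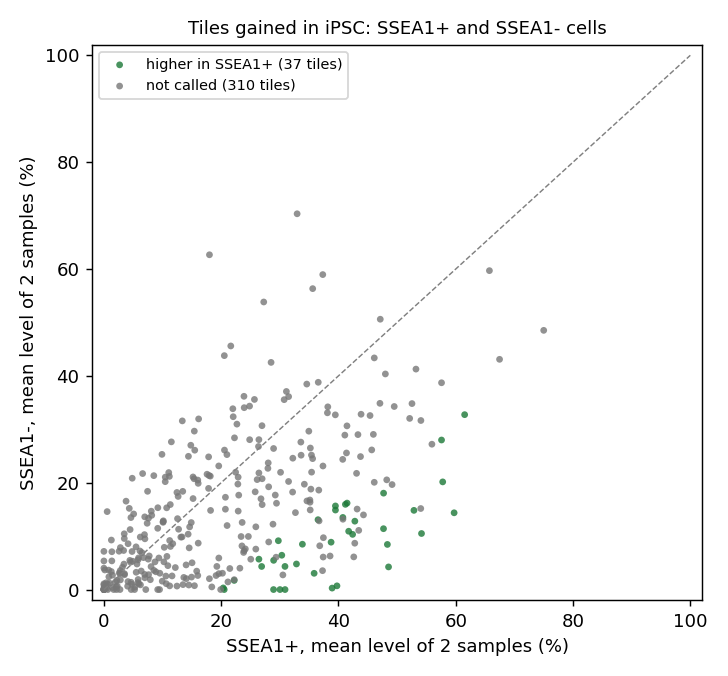
Mean methylation level of each of the 347 tiles in SSEA1+ cells (horizontal axis, %, 2 samples) and SSEA1- cells (vertical axis, %, 2 samples); the dashed line marks equal levels. The 37 tiles called higher in SSEA1+ cells, in green, lie below the line, and 310 tiles in grey are not called.

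Against male MEF, SSEA1+ cells were higher at 21 tiles and lower at 10, where 0.56% of all tiles tested were higher and 3.07% lower. Among the other low tiles 0.321% were higher and 1.69% lower. The median difference over the members was -0.23 points, and 0.23 points within type B against male MEF 1. The 21 higher tiles had medians of 46.1% in SSEA1+ cells, 12.8% in SSEA1- cells and 15% in male MEF, with 70.1% in iPSC, 54.5% in female ESC and 83.7% in male ESC. Without SSEA1+ 1, 6 tiles were higher and 2 lower, and 4 of the 21 remained, while without male MEF 1 the balance turned, with 11 higher and 22 lower. With limma 9 were higher and 7 lower, and with library type as a term 40 were higher and 16 lower. On chromosome 6 (117277001 to 117278000, 5 CpGs) SSEA1+ cells had 57.3% and 48.4%, against 24.0% and 12.3% in male MEF, a difference of 34.7 points (adjusted p = 0.0184, with 0.288 without SSEA1+ 1 and 0.0506 without SSEA1+ 2). SSEA1- cells there had 11.6% and 18.1%. On chromosome 13 (58046001 to 58047000, 6 CpGs) SSEA1+ cells had 46.8% and 45.5%, against 14.9% and 7.94% in male MEF, a difference of 34.7 points (adjusted p = 0.0201, with 0.414 without SSEA1+ 1 and 0.0532 without SSEA1+ 2). SSEA1- cells there had 17.1% and 23.0%, below both SSEA1+ samples. The 10 lower tiles were 2.88% of the members, near the 3.07% of all tiles tested. In them male MEF had a median of 49.7%, with 8 above 30%, against 13.6% in SSEA1+ cells. A lower call needs male MEF at least 20 points above SSEA1+ cells, so a high male MEF level follows in part from the call.

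SSEA1- cells were higher than male MEF at 1 tile and lower at 21, where 0.48% of all tiles tested were higher and 1.7% lower, while 0.0389% of the other low tiles were higher and 0.818% lower. The median difference was -5.61 points, and -3.25 points within type B, and limma called 1 tile higher and 10 lower. Without male MEF 1, 0 tiles were higher and 33 lower, and without SSEA1- 2, 3 were higher and 14 lower. The 21 lower tiles had medians of 9.85% in SSEA1- cells and 39.5% in male MEF, with male MEF above 30% in 18 of them, while female MEF stood at 17.6%. Here too a high male MEF level follows in part from the call. At those tiles the SSEA1- median lay nearer to that of female MEF, a group low by choice, than to that of male MEF. The higher tile lies on chromosome 2 (28770001 to 28771000, 7 CpGs), with 26.2% and 16.0% in SSEA1- cells against 0% and 2.01% in male MEF, a difference of 20.1 points (adjusted p = 0.00754, and 0.0527 without male MEF 1). Without SSEA1- 1 the difference was 14.99 points, under the 20 points of a call, and with library type as a term it was 44.4 points. There SSEA1+ cells had 9.18% and 21.2%, overlapping SSEA1- cells, and iPSC had 69.8% and 74.0%. As a description against female MEF within type B, the median difference was 5.83 points for SSEA1+ cells and 0.88 points for SSEA1- cells, with 76 and 18 tiles at least 20 points higher.

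Male MEF, outside the choice, were not uniformly low at the tiles. Their group mean was 30% or less in 250 tiles, above 30% in 97 and 50% or more in 19, and as a description the median difference from female MEF was 4.01 points, with 41 tiles at least 20 points higher and 0 lower. A choice by low values in female MEF alone tilts this difference upward. The tile on chromosome 3 (58072001 to 58073000, 6 CpGs) had 66.5% and 91.9% in male MEF and 17.4% to 34.6% in female MEF, with 79.6% and 76.5% in iPSC. The tile on chromosome 14 (25726001 to 25727000, 4 CpGs) had 77.0% and 71.4% in male MEF and 22.0% to 31.0% in female MEF, and SSEA1+ cells, at 36.0% and 0%, were lower than male MEF (adjusted p = 0.0275). The tile on chromosome 8 (110586001 to 110587000, 7 CpGs) had 50% and 72.0% in male MEF and 10.9% to 22.5% in female MEF. In all 3 the male MEF samples lay above the highest female MEF sample, and iPSC, female ESC and male ESC were all at 40.7% or more.

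The tiles were CpG-poor for tiles that are low in fibroblasts. Their median was 7 covered CpGs, against 16 in the other low tiles, and they held a median of 116.5 reads per sample, against 211.5. The part of read number in the choice of tiles was not tested. Members made up 10.5% of the low tiles with 3 to 9 CpGs (259 tiles), 1.56% of those with 10 to 19 (73 tiles) and 0.429% of those with 20 to 29 (15 tiles). Levels in iPSC were lower at higher CpG number, with medians of 59.6%, 48.0% and 39.7% in those classes, and so were levels in male ESC, at 75.6%, 52.0% and 22.3%. Female ESC had 40.3%, 24.9% and 15.4%. In the 15 tiles with the most CpGs, iPSC were thus above both ESC groups by median, and 6 of the 15 were higher in male ESC than in male MEF, against 237 of 259 with the fewest CpGs.

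The tiles were also split by their level in female MEF, as a description. The choice put each iPSC sample at least 25 points above that level, so part of the rise in iPSC follows from it. The 127 tiles at 10% or less in female MEF were 1.44% of the low tiles of that level and had medians of 41.8% in iPSC, 25.2% in female ESC and 51.1% in male ESC. The 114 tiles above 10 and up to 20% were 10.4% of their level class, with 58.1% in iPSC, 37.1% in female ESC and 75% in male ESC. The 106 tiles above 20 and up to 30% were 15% of theirs, with 67.6% in iPSC, 47.5% in female ESC and 82.4% in male ESC. Most tiles that were near 0 in fibroblasts thus did not gain in iPSC, and partly methylated ones made up a larger share of the members than of the low tiles.

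Single CpGs were read as a description, since their reads are among those that chose the tiles and a gain at most CpGs of a tile follows in part from the choice. In 325 tiles, 895 CpGs had at least 5 reads in all samples, and 742 of them (82.9%) were at least 25 points higher in iPSC than in female MEF, with a median of 42.7 points. Among 187 tiles with 3 or more such CpGs, 184 had a gain at every one of them and 125 (66.8%) a gain of at least 25 points at every one. In the chromosome 3 tile with the largest gain, the 5 CpGs at 143972445, 143972456, 143972471, 143972550 and 143972572 had 82.2%, 86.7%, 87.1%, 96.0% and 88.9% in iPSC, against 2.91%, 9.91%, 11.1%, 21.8% and 10.7% in female MEF. In SSEA1+ cells the same CpGs had 64.1%, 82.4%, 20.6%, 49.0% and 53.4%, on as few as 5 reads, so the intermediate level there was uneven along the fragment.

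The tiles lay apart from each other. As single tiles stood 335, and 12 formed 6 pairs of neighbours. The median distance to the nearest other member was 865 kb. On chromosome 3 (129672001 to 129674000) the pair differed between its tiles. The first tile (23 CpGs) had 43.9% and 35.4% in iPSC, 14.3%, 17.2%, 17.0% and 17.5% in female ESC, 0% in both male ESC samples and at most 0.993% in every SSEA1 and MEF sample. There female ESC exceeded male ESC by 16.5 points (adjusted p = 0.000396), under the 20 points that a call needs. The second tile (9 CpGs) had 50.5% and 47.4% in iPSC, 0% to 14% in female ESC and 16.4% and 30.3% in male ESC. There female ESC differed from male ESC by -16.3 points (adjusted p = 0.163), so the order of the ESC groups changed within the pair by differences that were not called. Over the pair on chromosome 5 (148082001 to 148084000) the mean levels were 44.9% in iPSC, 24.9% in female ESC, 45.1% in male ESC and 10.2% in female MEF. Over the pair on chromosome 8 (47376001 to 47378000) they were 52.0%, 15.3%, 45.4% and 3.49% in those groups.

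Of the members, 60 had a tested tile next to them. With other members included, the tested tiles 1 kb before (34 tiles) and after (28 tiles) a member had mean levels of 25.5% and 26.8% in iPSC, against 11.1% and 11.8% in female MEF, where the members had 57.2% and 14.5%. The 50 adjacent tiles that were not members had medians of 11.9% in iPSC, 5.90% in female ESC, 7.55% in male ESC and 2.40% in female MEF. Of these 50 tiles, 42 were low in female MEF too, 8 were above 30% and 12 held 30 or more CpGs, so a low iPSC level in most of them follows from their not being members. Members were next to a tile of 30 or more CpGs in 12 cases (3.46%), against 19.8% of the other low tiles, and their median distance to such a tile was 80 kb, against 44 kb. The nearest tile above 30% in female MEF was at a median of 43 kb, against 42 kb for the other low tiles. RRBS reads only part of the genome, so most neighbouring tiles were not tested. Members were found on every autosome, from 5 on chromosome 16 to 38 on chromosome 5, and made up 1.51% of the low tiles of chromosome 17 and 5.82% of those of chromosome 18, the lowest and the highest share.

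Tiles just inside and just outside the limits on the gain and on the female MEF level differed by little in the value that decided it, while the CpG numbers at their limit lay further apart. The 3 members with the smallest gain, on chromosome 9 (98858001 to 98859000), chromosome 11 (101126001 to 101127000) and chromosome 5 (148768001 to 148769000), had gains of 25.01, 25.07 and 25.07 points in the lower iPSC sample. The 3 tiles just outside, on chromosome 6 (88192001 to 88193000), chromosome 5 (81451001 to 81452000) and chromosome 3 (51850001 to 51851000), had 24.99, 24.95 and 24.93 points, with male ESC at 42.4%, 56.1% and 32.9%. At the limit on female MEF, members on chromosome 12 (58110001 to 58111000), chromosome 14 (64942001 to 64943000) and chromosome 5 (74246001 to 74247000) stood at 29.97%, 29.96% and 29.86%. Tiles just above it, on chromosome 15 (84182001 to 84183000), chromosome 12 (104452001 to 104453000) and chromosome 5 (119617001 to 119618000), stood at 30.14%, 30.25% and 30.36%. At the limit on CpG number, the members with 28, 28 and 27 CpGs are described above, and the tiles just outside, on chromosome 8 (24169001 to 24170000, 34 CpGs), chromosome 15 (87375001 to 87376000, 43 CpGs) and chromosome 4 (136512001 to 136513000, 66 CpGs), had 56.0%, 46.0% and 33.7% in iPSC 1. A further 166 tiles met the gain from a female MEF level above 30%.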

How the data were processed

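DNA methylation was measured by RRBS in 18 samples of 7 groups, taken from the sample labels. The tables that the authors deposited hold read counts for each strand of each CpG, methylated reads beside total reads, and these counts were used unchanged. Per the submitters' processing notes the build is mm9. The sources used here name no aligner, caller or filter. RRBS counts carry no molecular identifiers, so repeated copies of a molecule may be counted.

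Strands were added, a CpG was used at 5 or more reads, and reads were summed in tiles of 1 kb. All 33545 tiles were fitted in all samples by quasi-binomial logistic regression on 7 group means, with dispersions moderated by limma's squeezeVar method (prior dispersion 2.06, prior df 5.97) and set to at least 1. Its F tests, tested on simulated counts, were adjusted by the Benjamini-Hochberg method over all tiles in each of 6 comparisons. Differences are of group means, in points. Replicate numbers did not pair the samples: deviations of same-numbered samples from their group means correlated by -0.038 to 0.013. Chi-square per degree of freedom between replicates ran from 1.34 to 8.06, and was 6.66 between the male MEF samples. None were merged as 1 sample, though a value above 1 does not show separate cultures. The dispersion shared by all groups may be too small for male MEF, which was not tested. Female MEF 3 and 4, at Pearson r = 0.996, and both iPSC, at 0.983, may not be separate cultures.

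The members, classes and alternatives were chosen with earlier results of these data known. Named tiles followed a rule: at most 3 per item and 1 per 100000 bases, by the largest iPSC gain, the largest called difference without overlap of samples in each comparison, the smallest of the larger ESC mean, the largest difference of male from female MEF, the longest runs and the most CpGs, plus those at each threshold. Other named tiles were chosen after their values were seen, as said beside them. The gene table at hand is on another build, so genes, promoters and sequences were not analysed here. Alternatives were 3 or 10 reads, reads capped at 50, shared CpGs only, limma on log2 ratios (prior count 1), a replicate block, library type as a term, a difference of 25 points, a gain of 40 points, female MEF of 1 library type, CpGs weighted equally and leaving out each sample. Tools were R 4.3.3 with limma 3.58.1, and Python 3.11.15 with scipy 1.17.1, pandas 2.3.3 and numpy 2.4.6.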

Additional observations from a re-analysis of the deposited data

Results flagged for a closer look

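At the first tile of the pair on chromosome 3 (129672001 to 129673000), female ESC 1 stood at 14.3%, apart from the other female ESC at 17.2%, 17.0% and 17.5%. The gap of that sample to the nearest other, relative to the range of the group, was above Dixon's critical value for 4 samples. The group levels examined in this way make some such gaps by chance, about 1 in 20 groups, and the sample still lay far above both male ESC samples at 0%.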

How the results depend on the processing

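With 10 reads per CpG, 99 of the 347 tiles could be tested, and calls fell to 85 for male ESC against male MEF, 31 for female ESC against male MEF, 63 for female against male ESC, 7 for SSEA1+ and 3 for SSEA1- cells against male MEF, and 8 for SSEA1+ against SSEA1- cells. With only CpGs read in all samples, 187 tiles could be tested, with 166 calls for male ESC against male MEF, 132 between the ESC groups, and 17 and 14 for SSEA1+ and SSEA1- cells against male MEF. Both settings tested fewer tiles, which limits the number of calls. Whether this accounts for all of the fall was not tested. Limma gave 16, 11 and 23 calls for SSEA1+ against male MEF, SSEA1- against male MEF and SSEA1+ against SSEA1- cells, and library type as a term gave 56 for the first and 64 for the last of these, and the cause was not tested. Leaving out 1 sample gave 258 to 307 calls for male ESC against male MEF, 117 to 135 for female ESC against male MEF, 191 to 239 between the ESC groups, 8 to 39 for SSEA1+ and 16 to 33 for SSEA1- cells against male MEF, and 7 to 44 between the SSEA1 groups.

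The rule itself gave 98 tiles at 10 reads (96 among the 347), 547 at 3 reads (345 among them), 196 over shared CpGs (160), 146 at a gain of 40 points, and 309 to 432 when 1 sample was left out. Female MEF of type C alone gave 285 (268), and of the other types 480 (334). The mean level was 14.9% in SSEA1- cells with CpGs weighted equally, and 11.8% in female MEF of type B. The replicate block, though the numbers did not pair the samples, gave 301, 115, 231, 38, 18 and 36 calls in the order of comparisons above, and pairing changed no count by over 1.5 times. For the named tiles, 302 of 322 values kept their side of the threshold, 20 lost the call and 0 changed direction. Many of these values come from leaving out a sample of a group outside the comparison, which cannot change the difference. At 10 reads per CpG only 1 of the 13 named results could be tested. Precision is limited by median reads per tile of 58 to 346 over the samples, with as few as 15 in single tiles, and by 2 samples in most groups.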
